A study of Mus musculus with 16 samples.

Results

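The 8 genes of cellular senescence and the p53 pathway followed here (Cdkn1a, Cdkn2a, Cdkn2b, Trp53, Mdm2, Gdf15, Lmnb1 and Ccng1) were measured in injured and intact intervertebral discs of Adam8EQ mutant and wild-type mice. They were chosen by name, with earlier results of these data known, and make up 8 of the 49315 genes in the expression table. In mutants, Cdkn1a, Mdm2 and Lmnb1 were higher after injury, and so was Gdf15, which was tested only because injured libraries reached the 1 TPM that a test required. Of all tested genes, 13.1% were called higher after that injury. Cdkn1a rose from a mean of 109 to 467 TPM (a unit in which reads are divided by gene length and every library is brought to the same sum) and Mdm2 from 54.3 to 120. Trp53 itself and Cdkn2b passed no test in any of the 5 comparisons, and Cdkn2a reached 1 TPM in 1 of 16 libraries. In a fit by library name, 5 members passed the test among mutants whose names begin with A8, where 21.2% of all tested genes did. Among those named M none did, against 4.47% of all genes. The difference between the names was called for no member and for 0% of all genes. In wild types none of the 7 tested members passed the test after injury, and only 0.116% of all tested genes did. No member passed the test between genotypes or for a difference between the genotypes in the response to injury. Of all tested genes, 0.0165% passed between genotypes in intact discs, 0.918% in injured discs and 0% for the difference in response.

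Each library was made from the RNA of 4 tail discs (Co3/4 to Co6/7) pooled from 1 mouse, so the 16 libraries stood for 16 mice. The groups were 3 wild-type mice with intact discs, 4 wild-type mice with injured discs, 4 Adam8EQ mutants with intact discs and 5 Adam8EQ mutants with injured discs. Adam8 encodes a membrane-anchored metalloprotease, the EQ allele is not described further in the labels, and the series title names DBA, an inbred strain, as the comparison. The kind of injury, the time after it and the ages of the mice are not given in the sources used here. The names of the mutant libraries begin with A8 (injured mice 1 and 2, intact mice 1 and 2) or with M (injured mice 3, 4 and 5, intact mice 3 and 4), and all wild-type names begin with D. What the beginnings stand for is not given, and for the wild types the name cannot be told apart from the genotype.

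The transcription factor p53, the product of Trp53, is held at a low level by Mdm2, a ubiquitin ligase that marks it for degradation and whose own gene is a p53 target. Since the control acts mostly on the protein, p53 activity can change without a change in Trp53 RNA. Active p53 induces Cdkn1a (p21, an inhibitor of cyclin-dependent kinases that halts the cell cycle), Ccng1 (cyclin G1, which recruits a phosphatase to Mdm2) and Gdf15, a secreted stress cytokine that also responds to other stress pathways. Cdkn2a encodes p16INK4a, an inhibitor of the kinases CDK4 and CDK6, and p19ARF, which blocks Mdm2, while Cdkn2b encodes the related inhibitor p15INK4b. Lmnb1 encodes lamin B1, a protein of the nuclear lamina whose loss is a widely used mark of senescent cells. Senescent cells have been described in ageing and degenerating discs.

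The stretches upstream of 4 members are shown because these genes are the classical p53 targets of the set, and 3 of them carry a match to the p53 half-site. The letters come from RefSeq on GRCm38.p6, run 5′ to 3′ on the strand of the gene and cover the bases from 200 to 31 before the annotated start. Capitals mark the half-sites, searched on both strands.
Cdkn1a: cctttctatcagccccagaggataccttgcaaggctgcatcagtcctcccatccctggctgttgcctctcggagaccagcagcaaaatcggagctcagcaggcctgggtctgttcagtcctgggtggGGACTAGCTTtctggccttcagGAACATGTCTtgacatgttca
Mdm2: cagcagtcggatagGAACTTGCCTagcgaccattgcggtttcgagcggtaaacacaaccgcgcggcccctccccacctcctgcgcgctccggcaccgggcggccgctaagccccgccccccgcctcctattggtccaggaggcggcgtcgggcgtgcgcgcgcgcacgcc
Ccng1: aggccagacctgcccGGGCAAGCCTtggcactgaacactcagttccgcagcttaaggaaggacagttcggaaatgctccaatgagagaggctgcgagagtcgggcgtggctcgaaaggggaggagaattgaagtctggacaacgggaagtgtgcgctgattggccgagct
Gdf15: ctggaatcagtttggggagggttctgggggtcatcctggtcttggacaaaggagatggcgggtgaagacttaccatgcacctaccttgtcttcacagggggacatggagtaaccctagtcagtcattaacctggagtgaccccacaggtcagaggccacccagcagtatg
The stretches lie at chr17:29090779-29090948 (plus strand) for Cdkn1a, chr10:117710789-117710958 (minus strand) for Mdm2, chr11:40755317-40755486 (minus strand) for Ccng1 and chr8:70632487-70632656 (minus strand) for Gdf15. None of the 4 overlaps an exon of the GENCODE M21 annotation.

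Promoter entries were found for 7 of the 8 members, with 10 start sites in all, and 4 of these starts had at least 1 p53 half-site within the 250 bases before them. Of all 32817 promoters in the table, 2338 (7.12%) had one. Cdkn1a had a pair of half-sites, at 73 to 64 and 51 to 42 bases before its upstream start, with 12 bases between them, and 85 of all promoters (0.259%) held at least a pair. The search counted only full matches. The run tgacatgttc, directly after the second of the pair, misses the pattern at its first base alone and was not counted. Which of these runs p53 binds was not tested. The half-site of Mdm2 lay 186 to 177 bases before the start, that of Ccng1 185 to 176 and that of Trp53 75 to 66, in a stretch that overlaps an exon of the neighbouring gene Wrap53. Neither Gdf15 start had one. The AP-1 motif TGANTCA (6.75% of all promoters) and the ATF4 composite motif TGATGNAA (3.45%) occurred before no member start, and TATAAA (12.4%) only before Trp53, each searched on both strands. A match is a run of letters and shows no binding. Sites outside these 250 bases, such as in introns, were not searched, so a missing match does not speak for the whole gene.

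The depth recovered from the steps between low TPM values was 10195411 to 24819506 reads a library. A gene was tested where 3 or more libraries reached 1 TPM, which 24188 did. Disc and cartilage genes such as Acan and Col2a1 were abundant in every library, and the 7 markers summed to 30493 to 33935 TPM in intact and 7820 to 17979 TPM in injured mutants, and to 24942 to 30763 and 13222 to 25289 TPM in wild types. The 7 macrophage markers summed to 152 to 215 TPM in intact discs, to 249, 381, 3521 and 2331 TPM in injured wild types 1 to 4 and to 781 to 7705 TPM in injured mutants. After injury in mutants 6 of 7 passed the test as higher, against 13.1% of all tested genes. The 7 neutrophil markers summed to 4.73 to 15.1 TPM in intact discs, with Ly6g and Mpo at 0 in all of them, and to 16 to 872 TPM in injured mutants. There 3 of 5 tested markers were called higher (background 13.1%). Of the 7, 2 averaged at least 1 TPM in intact wild types, 1 in intact mutants and 4 in injured mutants. Some may thus have been tested only because injured libraries reached 1 TPM. Injured mutant 2 had the highest sums of both. In injured wild types 1 and 2 the neutrophil sums (9.3 and 9.54 TPM) lay in the intact range. The macrophage sums of these mice lay above every intact library but far below those of injured wild types 3 and 4. In pooled tissue, a change in the number of cells of a type and a change in the RNA of each cell cannot be told apart, and the part of infiltrating cells in the results was not tested.

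**Figure D1:**
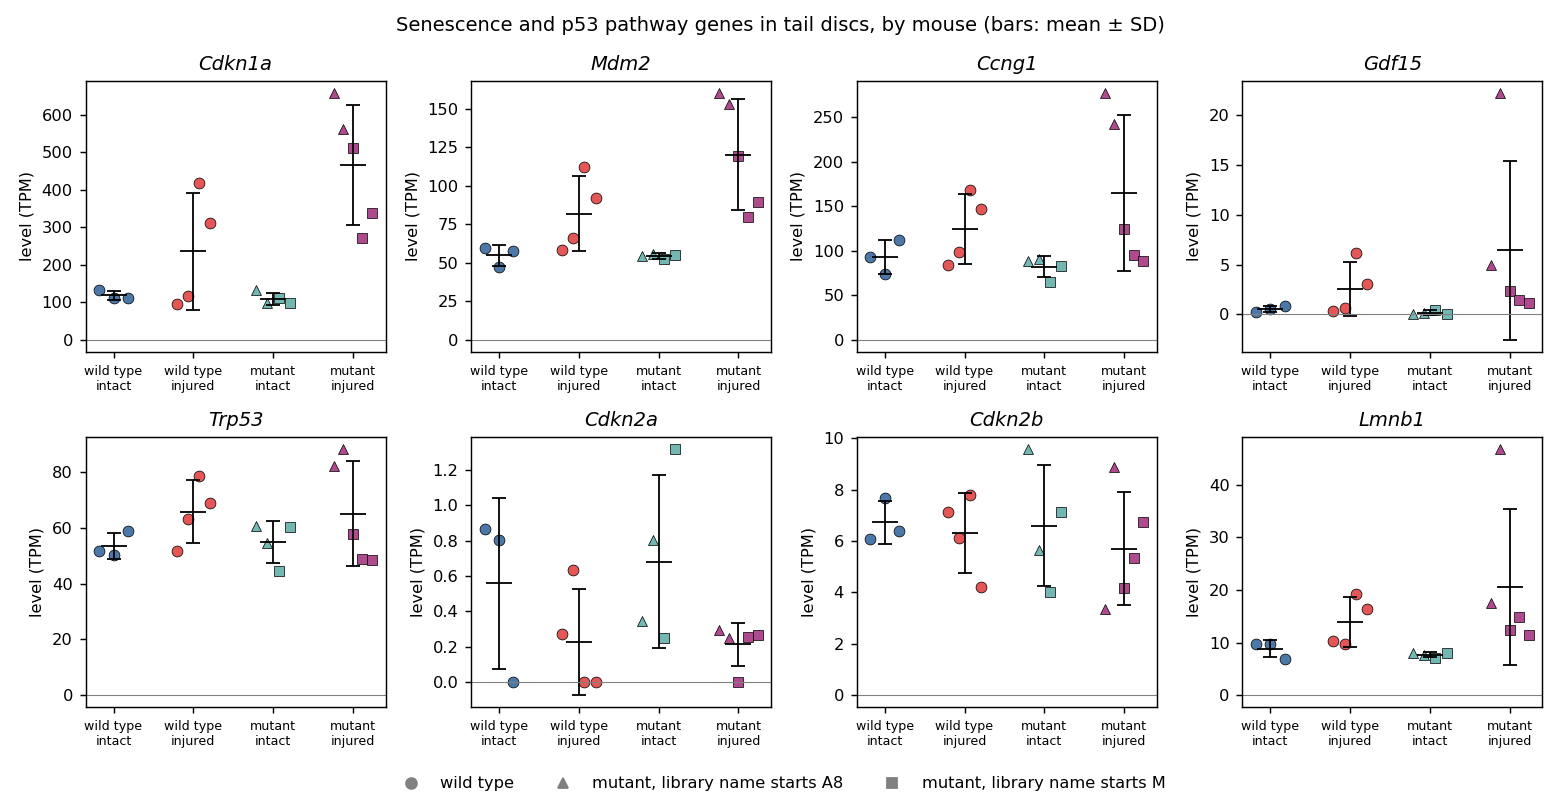
Level of each of the 8 genes (vertical axes, TPM) in each of the 16 mice, by genotype and treatment. Points are mice, with triangles and squares for mutant libraries named A8 and M, and bars are the mean and SD. All 5 injured mutants lie above every intact mutant for Cdkn1a, Mdm2, Gdf15 and Lmnb1, while Trp53, Cdkn2a and Cdkn2b overlap. How many of all tested genes separate in this way is not given here.

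In intact discs the members fell into 4 tiers of abundance. TPM values are scaled per gene length and may be set side by side across genes. Cdkn1a was the most abundant, at 118 ± 12.7 TPM in wild types (SD, n = 3) and 109 ± 15.5 in mutants (SD, n = 4), followed by Ccng1 at 93.0 ± 19.2 and 82.0 ± 11.9. Mdm2 (54.8 ± 6.72 and 54.3 ± 1.69) and Trp53 (53.6 ± 4.67 and 55.1 ± 7.49) formed the second tier. Lmnb1 (8.81 ± 1.62 and 7.68 ± 0.469) and Cdkn2b (6.72 ± 0.836 and 6.59 ± 2.36) formed the third. Cdkn2a (0.558 ± 0.484 and 0.681 ± 0.491) and Gdf15 (0.510 ± 0.327 and 0.162 ± 0.226) were near the limit of detection. The ranges of neighbours within a tier overlapped, except that in intact mutants Cdkn1a (97.2 to 131 TPM) lay above Ccng1 (65.0 to 91.2).

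Between genotypes the intact discs did not separate. None of the 7 tested members was called (limma, Benjamini-Hochberg adjusted p under 0.05), at a background of 0.0165% of all tested genes, and none had an unadjusted p under 0.05, which 3.78% of all genes had. The changes, mutant minus wild type on the log2(TPM + 1) scale, ran from -0.37 ± 0.71 for Gdf15 to 0.03 ± 0.21 for Trp53 (± limma's standard error, here and below). The values of the groups overlapped for every tested member.

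Trp53 (chr11:69580359-69591873 on GRCm38, plus strand), the head of the pathway, showed no called change in RNA after injury. Its level was 51.7, 50.3 and 59.0 TPM in intact wild types, 51.8, 63.4, 78.8 and 69.1 in injured wild types, 60.8, 54.7, 44.7 and 60.4 in intact mutants and 82.2, 88.4, 58.0, 48.8 and 48.4 in injured mutants. Injured mutants 1 and 2, the A8-named ones, were above all other mice, while injured mutants 3, 4 and 5 lay within the intact range. The change with injury was 0.20 ± 0.18 in mutants (limma adjusted p = 0.4306) and 0.28 ± 0.21 in wild types (limma adjusted p = 0.4977).

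Mdm2, the inhibitor of p53, rose in injured mutants. It stood at 54.2, 55.9, 52.1 and 55.2 TPM in intact mutants and at 160, 153, 119, 79.9 and 89.4 in injured mutants. Every injured mutant exceeded every intact one, and the A8-named mice were again the highest. The change was 1.08 ± 0.21 on the log2 scale, or 2.11-fold (limma adjusted p = 0.002613). In wild types, intact discs had 59.7, 47.1 and 57.5 TPM and injured discs 57.9, 66.1, 112 and 91.8. Injured wild type 1 lay within the intact range, mouse 2 just above it and mice 3 and 4 well above it. The change of 0.53 ± 0.24 had an unadjusted limma p of 0.04534 and an adjusted p of 0.2836.

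Cdkn1a, the p21 gene, gained more TPM with injury in mutants than any other member. Intact mutants had 131, 97.2, 111 and 98.7 TPM, and injured mutants had 657, 562, 510, 271 and 337. The lowest injured mutant was above the highest intact one of either genotype. The change was 2.02 ± 0.38 on the log2 scale, or 4.06-fold (limma adjusted p = 0.001929). In wild types the intact discs had 133, 110 and 112 TPM and the injured discs 95.2, 115, 419 and 312. Injured wild types 1 and 2 were at the intact level, and 3 and 4 were within the range of injured mutants. The change in wild types was 0.72 ± 0.43 (limma adjusted p = 0.3902). Exons of Cdkn1a share 273 bases with a gene model on the opposite strand (AC167363.2), and whether counting used the strand is not given in the sources used here.

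Ccng1, a cyclin gene that p53 induces, was not called after injury. Its level was 88.9, 91.2, 65.0 and 82.9 TPM in intact mutants and 277, 242, 124, 95.0 and 88.9 in injured mutants. Injured mutants 1 and 2 were far above the rest, and mouse 5 was inside the intact range. The change of 0.85 ± 0.32 missed the threshold (limma adjusted p = 0.05578). It passed without injured mutant 4 (1.01, adjusted p = 0.02951) or injured mutant 5 (1.03, adjusted p = 0.02461), and was 0.63 without injured mutant 1 (adjusted p = 0.1283) and 0.68 without injured mutant 2 (adjusted p = 0.1245). In wild types the levels were 93.3, 73.7 and 112 TPM in intact discs and 84.2, 98.1, 168 and 147 in injured discs, with a change of 0.38 ± 0.37 (limma adjusted p = 0.6041).

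Gdf15 was nearly silent in intact discs and reached its highest level in 1 injured mutant. It was listed at 0, 0.170, 0.479 and 0 TPM in intact mutants and at 4.94, 22.2, 2.31, 1.45 and 1.18 in injured mutants. In wild types the levels were 0.183, 0.509 and 0.838 TPM in intact discs and 0.346, 0.600, 6.18 and 3.02 in injured discs. All 7 libraries with at least 1 TPM were injured ones, so the gene entered the test only through the group where it was high. The change in mutants was 2.05 ± 0.62 on the log2(TPM + 1) scale (limma adjusted p = 0.02233) and 4.15 with a pseudocount of 0.1. Without injured mutant 2, the library with the highest macrophage and neutrophil sums, it was 1.48 (adjusted p = 0.03292). Without intact mutant 1 or intact mutant 4 the adjusted p was 0.05371 or 0.05414. In wild types the change was 0.92 ± 0.71 (limma adjusted p = 0.5114).

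Of the inhibitor genes of the Cdkn2 locus, Cdkn2b did not follow p21, and for Cdkn2a this could not be told. Cdkn2b had 9.58, 5.64, 4.03 and 7.12 TPM in intact mutants and 3.35, 8.87, 4.18, 5.34 and 6.75 in injured mutants, with full overlap and a change of -0.19 ± 0.26 (limma adjusted p = 0.6187). In wild types it had 6.09, 7.67 and 6.40 TPM in intact and 7.12, 6.11, 7.78 and 4.21 in injured discs, and the change was -0.10 ± 0.30 (limma adjusted p = 0.8871). Cdkn2a (chr4:89274471-89294653 on GRCm38, minus strand), which neighbours Cdkn2b (chr4:89306299-89311039, minus strand), was too low to be tested. Its levels were 0.869, 0.804 and 0 TPM in intact wild types, 0.273, 0.632, 0 and 0 in injured wild types, 0.345, 0.805, 0.252 and 1.32 in intact mutants and 0.294, 0.251, 0, 0.254 and 0.267 in injured mutants. These values rest on 0 to 5 implied reads per library, and a change was not detectable at this depth. The gene value sums the p16INK4a and p19ARF transcripts, which cannot be told apart here.

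Lmnb1 was higher, not lower, in injured mutants. Intact mutants had 8.06, 7.54, 7.08 and 8.05 TPM, and injured mutants had 17.5, 46.8, 12.4, 14.9 and 11.4. All injured mutants were above all intact mutants, and injured mutant 2 stood apart at the top. The change was 1.11 ± 0.33 (limma adjusted p = 0.01873), and 0.78 without injured mutant 2 (adjusted p = 0.01532). In wild types the levels were 9.74, 9.76 and 6.94 TPM in intact and 10.3, 9.63, 19.3 and 16.4 in injured discs, a change of 0.56 ± 0.37 (limma adjusted p = 0.4377). The genes whose pattern over the 16 libraries was most like that of Lmnb1 were Cxcr2 (Pearson r = 0.977) and Fpr2 (r = 0.973), receptors that neutrophils carry, and their part in the Lmnb1 values was not tested.

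**Figure D2:**
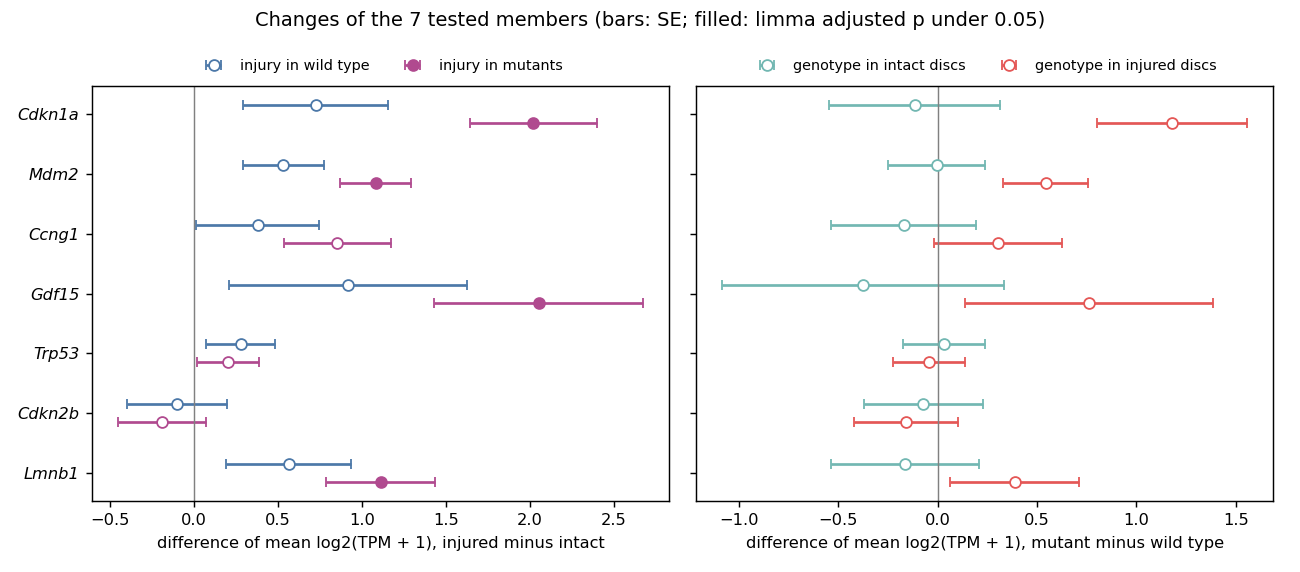
Differences of mean log2(TPM + 1) (horizontal axes) of the 7 tested genes, injured minus intact in each genotype on the left and mutant minus wild type in each treatment on the right. Points are limma estimates, bars their standard errors, and filled points have an adjusted p under 0.05. The filled points are Cdkn1a, Mdm2, Gdf15 and Lmnb1 after injury in mutants.

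Counted over the set, 4 of 7 tested members were called after injury in mutants, all higher, against 30.8% of all tested genes called in either direction and 13.1% called higher. Gdf15 entered that count through injured libraries alone, which favoured its call. Among genes with at least 1 TPM in 3 of the 7 intact libraries, 3 of 6 members were called, all higher, against 11.9% of all such genes called higher, and the median of the 6 was 0.97. The median log2 change of the 7 was 1.08, and that of all tested genes was -0.08. The count was 3 to 5 when any 1 library was left out. After injury in wild types none was called, at a background of 0.116%, and 1 (Mdm2) had an unadjusted p under 0.05, which 17.2% of all genes had. The median change of the 7 there was 0.53, against 0.01 over all genes.

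The comparison of genotypes in injured discs gave no called member, at a background of 0.918%. Mutant minus wild type, the change was 1.18 ± 0.38 for Cdkn1a (limma adjusted p = 0.1119) and 0.54 ± 0.21 for Mdm2 (limma adjusted p = 0.1738), the 2 members with an unadjusted p under 0.05, which 20.3% of all genes had. Both sets of values overlapped, with injured wild types 3 and 4 inside the mutant range. Without injured wild type 3, Cdkn1a passed, at 1.55 (limma adjusted p = 0.01822). In that setting 2272 of 23927 tested genes were called, against 222 with all mice. The other changes ran from -0.16 ± 0.26 for Cdkn2b to 0.76 ± 0.62 for Gdf15. These comparisons share libraries with the injury comparisons.

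The injury effect was not called as different between genotypes for any member, and for 0% of all tested genes. By unadjusted limma p-values 1 member and 8.18% of all genes were under 0.05. The estimate for Cdkn1a, mutant effect minus wild-type effect, was 1.30 ± 0.57 (limma unadjusted p = 0.03856, adjusted p = 0.5817), for Gdf15 1.14 ± 0.94 and for Mdm2 0.55 ± 0.32. The rise of Cdkn1a and Mdm2 in mutants and its absence from the calls in wild types is therefore not shown to be a difference between genotypes.

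Within the mutants the injury effect was also estimated by library name. In a fit with a mean for each group and name, chosen after seeing the data, 5 members were called after injury in A8-named mice (background 21.2%): Mdm2, Ccng1, Gdf15, Lmnb1 and Cdkn1a. In M-named mice none was called (background 4.47%), and 2 had an unadjusted limma p under 0.05 (background 25.3%), Cdkn1a at 1.77 ± 0.51 (adjusted p = 0.0639) and Mdm2 at 0.81 ± 0.24 (adjusted p = 0.06732). Trp53 changed by 0.56 ± 0.19 in A8-named mice (limma adjusted p = 0.0506) and by -0.01 ± 0.17 in M-named mice (adjusted p = 0.9823). The difference of the injury effects was called for no member and for 0% of all genes. Its unadjusted limma p was under 0.05 for Ccng1 (1.05 ± 0.40), Gdf15 (2.34 ± 1.01) and Trp53 (0.57 ± 0.25), and for 6.3% of all genes. Each name holds 2 or 3 mice per group, and what the names stand for is not given.

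**Figure D3:**
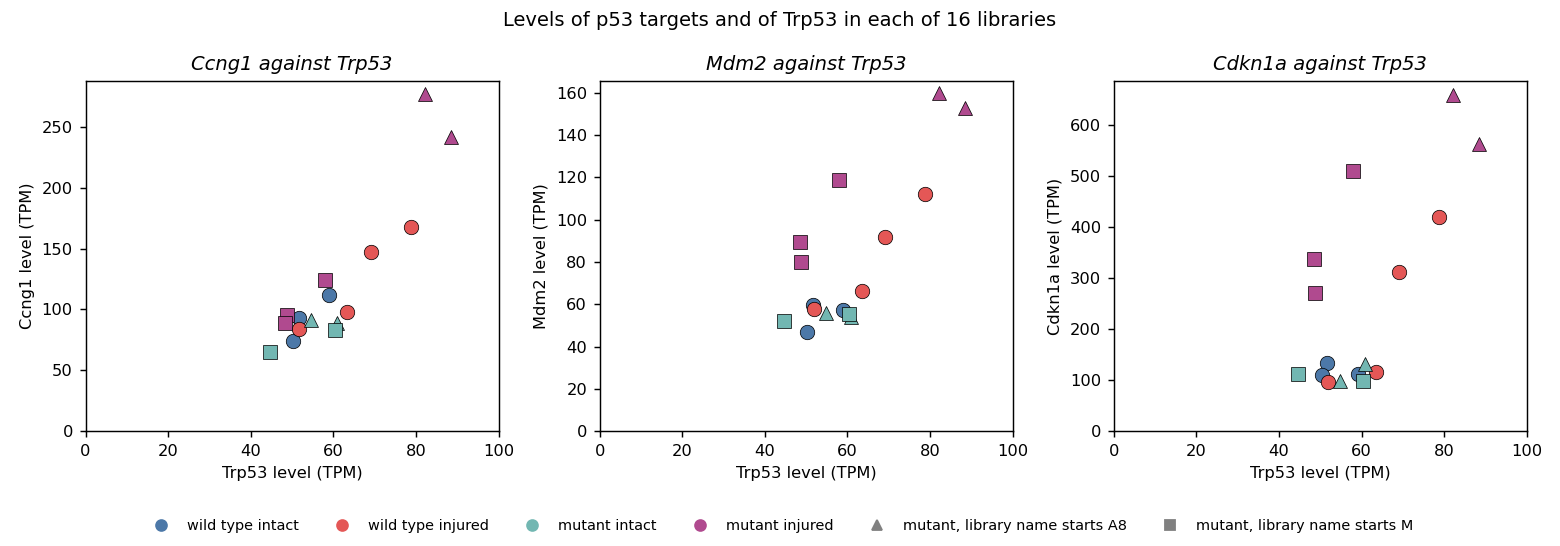
Levels (TPM) of Ccng1, Mdm2 and Cdkn1a on the vertical axes against Trp53 on the horizontal axes, 1 point per library, colored by group and shaped by library name. Ccng1 follows Trp53 over all 16 libraries, while the M-named injured mutants have raised Mdm2 and Cdkn1a at intact levels of Trp53.

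Over the 16 libraries the members fell into a correlated set and a separate gene. On the log2(TPM + 1) scale Cdkn1a and Mdm2 had a Pearson r of 0.966, Gdf15 and Lmnb1 0.943, Trp53 and Ccng1 0.906 and Mdm2 and Ccng1 0.900. After the group means were subtracted these were 0.898, 0.890, 0.950 and 0.931. Trp53 with Cdkn1a gave 0.610, the lowest value of the 5 p53 genes among themselves. Cdkn2b had an r between -0.281 and 0.082 with every other tested member. The libraries share tissue makeup and depth within themselves, so these values are descriptions.

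Among tested genes averaging 5 TPM or more, the closest to Cdkn1a were Znrf1 and Mafg (r = 0.978 for both), and the closest to Mdm2 were Azin1 (0.976) and Znrf1 (0.973). Gdf15 was closest to Esd (0.971) and Plin2 (0.969), a lipid droplet protein gene. Ccng1 was closest to Slc19a2 (0.972), a thiamine transporter gene, and Pak2 (0.965). Trp53 was closest to Stard3nl (0.949) and Kif2a (0.896). The closest to Cdkn2b, Slc25a51 (0.782) and Mir6999 (0.763), were less alike.

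Of 38 other established p53 target genes, 19 were higher and 5 lower after injury in mutants, against 13.1% and 17.7% of all tested genes, with a median log2 change of 0.62. The largest rises were those of Ckap2 (1.75 ± 0.34, from 1.82 to 9.24 TPM), a microtubule-binding protein that peaks in dividing cells, Cd80 (1.67 ± 0.42, from 3.50 to 15.8), a costimulatory protein of antigen-presenting cells, and Gadd45a (1.48 ± 0.26, from 5.18 to 16.7), a growth arrest and DNA damage gene. Higher genes also included Bax (1.04 ± 0.34), Sesn2 (1.02 ± 0.18) and Bcl2l1 (0.94 ± 0.16), of which Bax promotes and Bcl2l1 restrains apoptosis. The lower ones were led by Pmaip1 (-1.72 ± 0.40, from 30.0 to 9.22 TPM), the gene of the apoptosis promoter Noxa, Perp (-1.27 ± 0.36, from 127 to 55.6), a desmosome protein gene, and Ddb2 (-0.88 ± 0.18, from 35.8 to 19.3), a DNA repair gene. The called p53 targets thus included both directions, but only the higher calls were more frequent than among all tested genes. The lower calls were less frequent than among all tested genes. Without injured mutant 2 the counts were 15 higher and 4 lower.

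In injured wild types none of the 38 was called, and 8 had an unadjusted limma p under 0.05, a share near the 17.2% of all genes, with a median change of 0.22. The mice differed among themselves. The median difference of the 38 genes from the intact wild types was 0.01, -0.03, 0.57 and 0.30 in injured mice 1 to 4. In injured mutants 1 to 5 it was 0.98, 0.87, 0.54, 0.39 and 0.35 against the intact mutants. Injured wild types 1 and 2 thus lay at the intact level and mice 3 and 4 in or just under the mutant range. The macrophage sums of mice 1 to 4, at 249, 381, 3521 and 2331 TPM, also set mice 1 and 2 below mice 3 and 4, though all 4 exceeded every intact library. The part of macrophages was not tested. Pmaip1 was low in all 4 injured wild types, with differences of -1.55, -1.12, -2.60 and -1.67. In M-named mutants 3 of the 38 were called, Gadd45a, Sesn2 and Bcl2l1, all higher, a share of 7.89% near the 4.47% of all genes. In A8-named mutants 19 were higher and 4 lower, against 21.2% of all genes called. The difference between the names was called for none.

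**Figure D4:**
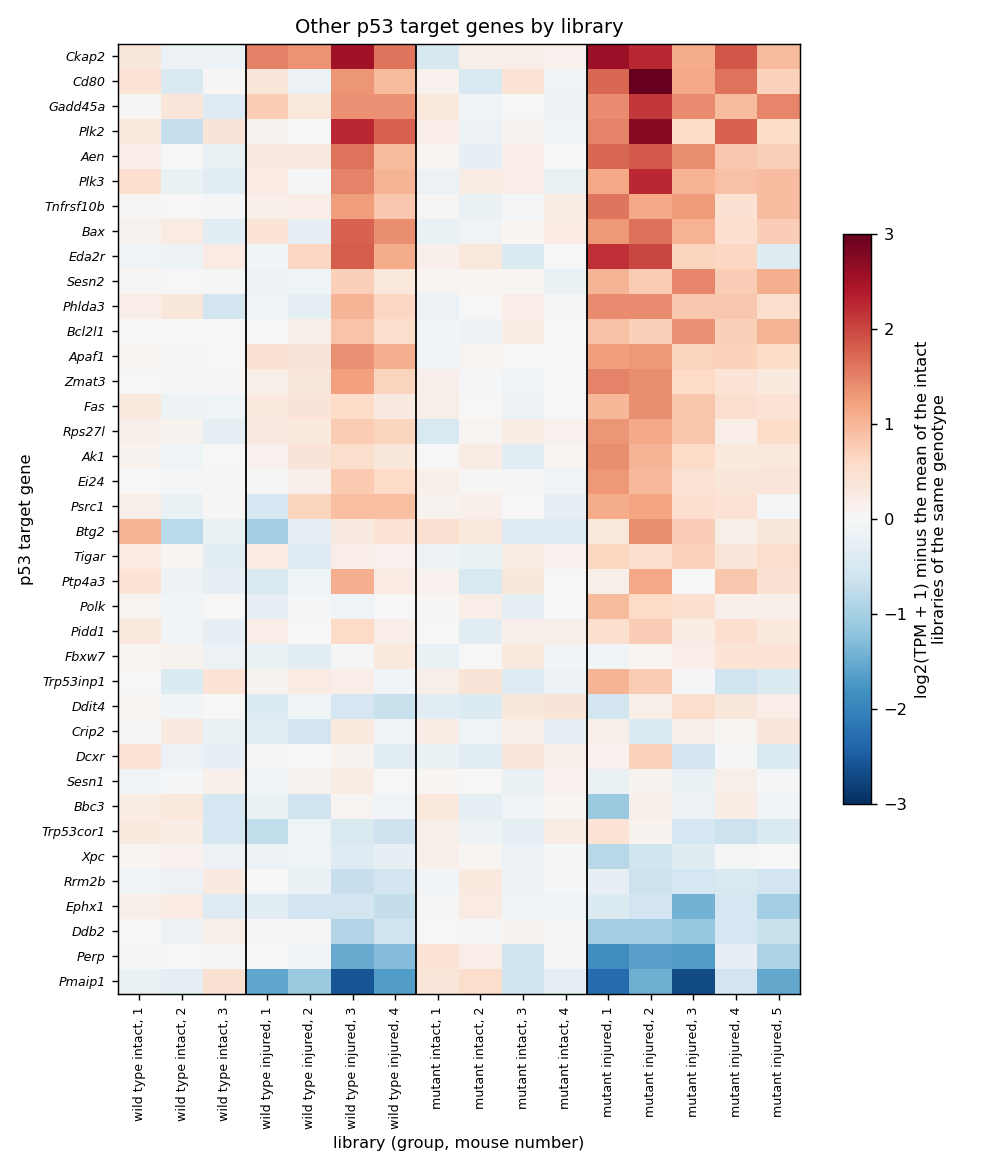
Heat map of the 38 other p53 target genes (rows) in the 16 libraries (columns). Color is log2(TPM + 1) minus the mean of the intact libraries of the same genotype, red for higher and blue for lower. Injured wild types 1 and 2 are pale, with medians of 0.01 and -0.03, and Pmaip1, in the bottom row, is blue in all injured libraries.

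Between genotypes in injured discs, 1 of the 38 p53 targets was called, or 2.63%, against 0.918% of all tested genes. It was Bcl2l1, at 110 TPM in mutants and 66.5 in wild types (0.74 ± 0.16, limma adjusted p = 0.04915). The groups did not overlap. Its adjusted p ran from 0.007227 to 0.1812 when single libraries were left out, and it stayed under 0.05 only without injured mutant 2, injured mutant 4 or injured wild type 3.

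The kinases, ligases and cofactors that regulate p53 were called lower more often than higher after injury in mutants, as were all tested genes. Of 22 tested, 2 were higher (background 13.1%) in injured mutants, the checkpoint kinase Chek1 (0.74 ± 0.23) and the ubiquitin ligase Rchy1 (0.28 ± 0.10), and 7 were lower (background 17.7%), led by Trp63 (-1.07 ± 0.22), a p53 family member of epithelial cells, Trp53bp1 (-0.48 ± 0.13) and Rpl5 (-0.44 ± 0.10), a ribosomal protein that binds Mdm2. Their median change was -0.06. The count of higher genes was 0 without intact mutant 1, and it was 1 with the replicate number as a block or without injured mutant 1, 2 or 4 or intact mutant 2, 3 or 4. Mdm4, the partner of Mdm2, was at -0.21 ± 0.12 and not called. The count of lower genes was 5 to 7 when any 1 library was left out. In the fit by library name the excess of lower genes was gone, with 2 higher and 2 lower in A8-named mutants (background 21.2% called). In M-named mutants 1 was higher and 1 lower (background 4.47%).

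Around the kinases that p21 and p16INK4a inhibit, 7 of 20 genes were higher and 4 lower in injured mutants, where 13.1% and 17.7% of all tested genes were. E2f2 (1.5 ± 0.34) and Cdk6 (1.06 ± 0.21) rose, as did Cdkn2d (0.95 ± 0.18), another member of the INK4 inhibitor family. Cdkn1c (-1.25 ± 0.26), which encodes the p21 relative p57, Rbl2 (-1.03 ± 0.18), a pocket protein of quiescent cells, and Ccnd3 (-0.83 ± 0.15) fell. Among 16 tested regulators of the Cdkn2a and Cdkn2b locus 3 were called, or 18.8%, against 30.8% of all genes. The repressors Cbx7 (-1.69 ± 0.22, from 61.5 to 18.9 TPM) fell and Tbx3 (1.44 ± 0.51) rose, and Ets1 (1.26 ± 0.24), an activator of p16INK4a, rose. No intact library had 1 TPM of Tbx3, so it too was tested only through injured ones. The median of these 16 was 0.00. The count of higher genes was 1 with quantile normalization, with the replicate number as a block, or without any 1 of injured mutants 1 and 2, the 4 intact mutants, injured wild type 4 and the 3 intact wild types, and 3 without injured wild type 3.

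Nuclear lamina genes other than Lmnb1 changed in both directions in mutants, with 5 of 13 higher and 4 lower, against 13.1% and 17.7% of all tested genes. Lmna (0.88 ± 0.24, from 153 to 281 TPM), Banf1 (0.73 ± 0.12) and Lmnb2 (0.68 ± 0.22) rose. Syne1 (-1.33 ± 0.29, from 480 to 197 TPM), Syne2 (-0.86 ± 0.17) and Sun2 (-0.56 ± 0.09), which tie the nucleus to the cytoskeleton, fell. The count of higher genes was 2 without intact mutant 2 and 3 without intact mutant 1, injured mutant 3 or injured mutant 5 and with the replicate number as a block.

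Proliferation genes rose in injured mutants, as the p21 gene did. Of 20 listed, 17 were higher and none lower in injured mutants (backgrounds 13.1% and 17.7%), with a median of 1.44, led by Mki67 (2.32 ± 0.36, from 3.51 to 23.3 TPM), Plk1 (2.00 ± 0.38) and Ccnb2 (1.95 ± 0.34). In injured wild types none was called, 15 had an unadjusted limma p under 0.05 (background 17.2%), and the median was 1.51, with Mki67 at 2.91 TPM in intact and 19.0 in injured discs. The lowest injured wild type had 10.4 TPM of Mki67 and the highest intact one 3.37. Cdkn1a, by contrast, was at 95.2 and 115 TPM in injured wild types 1 and 2, against 110 to 133 in intact ones. The count in mutants was 14 to 17 when any 1 library was left out. Aurkb, Birc5 and Bub1 had 1 TPM in fewer than 3 intact libraries, and without them 14 of 17 were higher, with a median of 1.16. In the fit by library name 16 of 20 were called in A8-named mutants (background 21.2%) and 3 in M-named ones (background 4.47%), and the difference of the effects was called for none.

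The integrated stress response, another inducer of Gdf15, had 5 of 13 tested genes higher and none lower in injured mutants (backgrounds 13.1% and 17.7%). Cebpb (2.32 ± 0.48), Atf4 (1.62 ± 0.22) and Psat1 (1.13 ± 0.38) led, while Ddit3 (0.25 ± 0.13) and Trib3 (0.23 ± 0.21) were not called. The count was 3 without intact mutant 1. Between genotypes in injured discs 1 of the 13 was called, against 0.918% of all tested genes. It was Atf4, the transcription factor of that response, higher in mutants at 592 against 267 TPM (1.10 ± 0.22, limma adjusted p = 0.03717). Its adjusted p ran from 0.01248 to 0.1494 when single libraries were left out, and it stayed under 0.05 without injured mutant 2, injured mutant 4, intact mutant 3 or injured wild type 3 and rose above it without any of the others.

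Of 32 tested secretory factors that senescent cells are known to release, 21 were higher and 1 lower in injured mutants (backgrounds 13.1% and 17.7%), with a median of 3.09. Of the 32, 7 had 1 TPM in fewer than 3 intact libraries (Ccl8, Cxcl2, Cxcl5, Hgf, Igfbp3, Il6 and Mmp9), and 6 of these were among the higher ones. Without the 7, 15 of 25 were higher and 1 lower, with a median of 3.12, against 11.9% and 19.8% of all genes held to the same rule. Many of them are also products of leukocytes and activated fibroblasts, and the macrophage and neutrophil sums rose in the same mice. Cxcl1 (6.59 ± 1.23, from 1.5 to 340 TPM), Mmp3 (5.99 ± 1.13, from 76.0 to 6910) and Ccl2 (5.94 ± 0.66, from 1.76 to 201) led, and Spp1 (-1.06 ± 0.37) was the lower one. In injured wild types 1 was called (background 0.116%), Timp1 (3.33 ± 0.50, from 28.1 to 366 TPM, limma adjusted p = 0.02479), and 18 had an unadjusted p under 0.05 (background 17.2%). The Timp1 call was lost without injured mutant 5, injured wild type 4 or any of the 3 intact wild types, with adjusted p-values of 0.0504 to 0.1174. The count of higher genes in mutants was 20 to 22 when any 1 library was left out, and that of lower genes was 0 without any 1 of injured mutants 1 to 4 or intact mutants 1, 2 and 4, with median-of-ratios scaling and with the replicate number as a block.

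**Figure D5:**
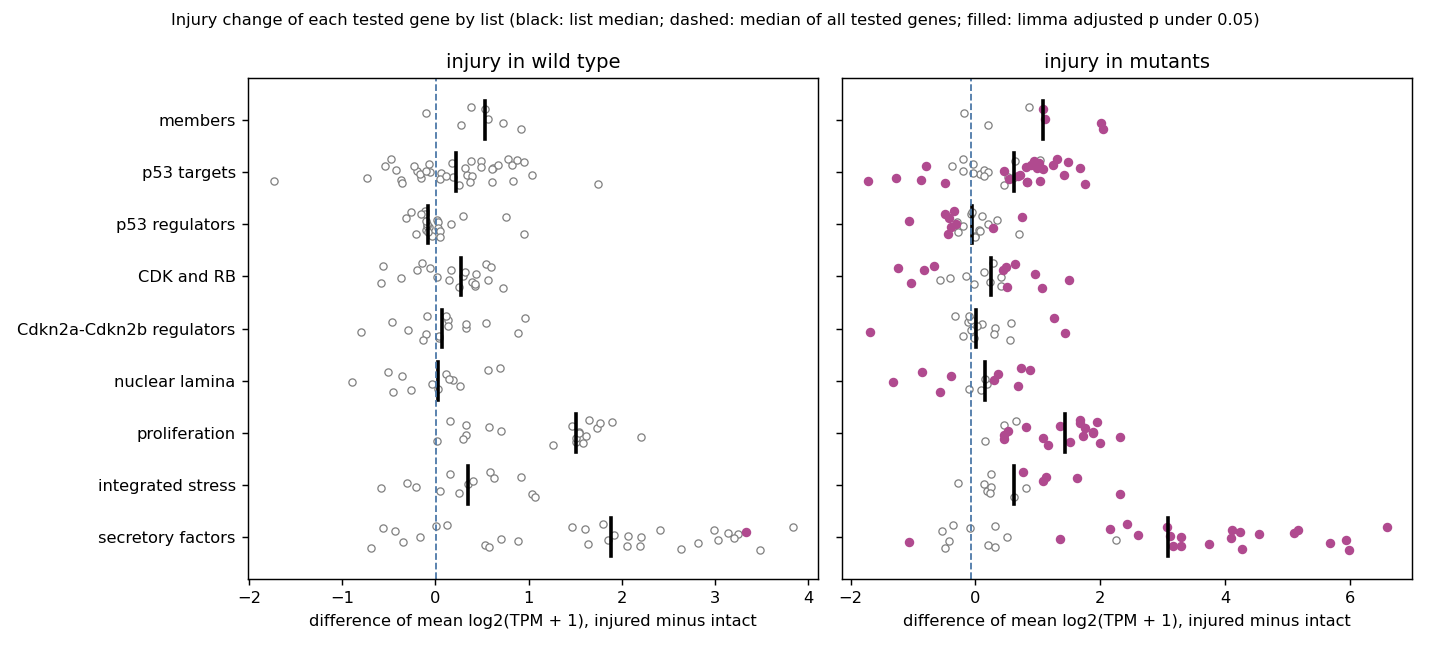
Injury change (difference of mean log2(TPM + 1), horizontal axes) of every tested gene of the members and the 8 pathway lists, in wild types and in mutants. Each point is a gene, filled where the limma adjusted p is under 0.05, black bars are list medians and the dashed line is the median of all tested genes. Proliferation genes have medians of 1.51 and 1.44 in the 2 genotypes, with filled points only in mutants.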

How the data were processed

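Bulk RNA sequencing of tail discs from 16 mice was used as 1 table of TPM values deposited by the authors, in which each library sums to 1000000. The labels' protocols describe ribosomal RNA depletion, while the molecule field reads polyA RNA. The submitters' processing notes name bcl2fastq 2.20 and GRCm38. The aligner, counting method, strand setting and annotation are not given in the sources used here. Groups came from the titles, and same-numbered mice are different animals.

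Changes were tested with limma 3.58.1 in R 4.3.3 on log2(TPM + 1) with a mean per group over all 16 libraries and eBayes with trend. Genes with at least 1 TPM in 3 libraries were tested (24188), and counts were also made without the 2620 that had 1 TPM in fewer than 3 intact libraries, a choice made after seeing the data. P-values were adjusted by Benjamini-Hochberg over the 24188 genes, with a threshold of 0.05. Fold changes are on the log2(TPM + 1) scale, which understates changes of low genes. The script was tested on simulated data. Implied reads came from the steps between low TPM values and GENCODE M21 exon lengths (48970 identifiers, 99.3%, found). Within a library 94.1% to 95.0% of low values lay within 0.05 of a whole read.

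All 8 members are named. From each pathway list the 3 largest called rises and falls were named first, then other list genes. The genes most like a member are the 2 with the highest Pearson r. Bax, Sesn2, Mdm4, Ddit3 and Trib3 were named after their values were seen. The members and lists were chosen with earlier results of these data known. The alternatives were another pseudocount, other filters, scalings, weights and spread models, a replicate block, library names and leaving out each mouse.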

Additional observations from a re-analysis of the deposited data

Results flagged for a closer look

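Of 24 groups of member values with at least 4 mice, 3 held a value set apart from the other mice of its group by a gap that is large for the range of the group, where chance gives about 1 in 20 groups. Gdf15 was at 22.2 TPM in injured mutant 2, and the next highest injured mutant had 4.94. Lmnb1 was at 46.8 TPM in the same mouse, and the next highest had 17.5. That library also had the highest macrophage marker sum (7705 TPM) and neutrophil marker sum (872 TPM), whose part in both values was not tested. Cdkn2a was at 0 TPM in injured mutant 3, while the other injured mutants had 0.251 to 0.294, values of 1 or 2 implied reads. The chance share of 1 in 20 need not hold at such low counts.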

How the results depend on the processing

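The 4 member calls after injury in mutants were kept under every pseudocount, filter, scaling, weighting and spread setting that tested them, except that a filter at a mean of 5 TPM left Gdf15 untested. With only M-named mutants the count fell to 0, also in the fit with means per group and name, where fewer mice enter each contrast. Left-out mice gave counts of 3 to 5 for injury in mutants and 0 to 1 for genotype in injured discs. Ccng1 passed in mutants with the 5 TPM filter (adjusted p = 0.04824), median-of-ratios scaling (0.04278), the replicate block (0.04913), the library name as covariate (0.009916) and A8-named mutants only (0.02056).

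Signs turned for changes that were called under no setting. With the library name as covariate the genotype change in intact discs became 0.12 for Cdkn1a, 0.0303 for Cdkn2b and 0.20 for Mdm2. It became 0.18 for Gdf15, 0.15 for Lmnb1 and 0.26 for Ccng1, and in injured discs Trp53 became 0.23. All wild-type names begin with D, so that fit cannot tell the name apart from the genotype. Its values are therefore not genotype changes adjusted for the name. With median-of-ratios scaling Mdm2 in intact discs became 0.0067, Trp53 in injured discs 0.066 and its interaction 0.0232. With A8-named mutants only Cdkn2b and Mdm2 in intact discs became 0.12 and 0.0147, Trp53 in injured discs 0.385 and its interaction 0.28. With M-named mutants only Trp53 became -0.0101 for injury in mutants and -0.0418 between intact discs, Gdf15, Lmnb1 and Ccng1 between injured discs -0.11, -0.0534 and -0.23, and the Cdkn2b interaction 0.0887. Quantile normalization gave 0.0299 for Cdkn2b in injured discs and 0.0712 for its interaction. The cause was not tested. Left-out mice gave -0.25 to 0.11 (intact genotype), -0.27 to 0.0891 (interaction) and -0.20 to 0.0523 (injury in wild types) for Cdkn2b, -0.11 to 0.06 for Mdm2 between intact discs, and -0.16 to 0.0504 (injured), -0.018 to 0.13 (intact) and -0.20 to 0.0187 (interaction) for Trp53.

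The replicate block gave 5 member calls in mutants, 0.0387 for Mdm2 between intact discs and 0.0504 for Trp53 between injured discs. Same-numbered mice are different animals, and the deviations of 21 same-numbered pairs correlated at -0.217 to 0.151.

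Counts over all genes moved more. Left-out mice gave 2 to 463 for injury in wild types (28 with all mice) and 7 to 2272 for genotype in injured discs (222), with 463 without injured wild type 1 and 2272 without injured wild type 3. Injury in mutants gave 7438, 3649 with A8-named and 743 with M-named mutants only. For that injury 42.6% of calls were higher and 52.1% with median-of-ratios scaling. Low reads limit Gdf15 and Cdkn2a.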
